A study of Mus musculus with 15 samples.

Results

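The genes described here encode IL-1, TNF and the colony-stimulating factors, with their antagonist and receptors. They are *Il1a*, *Il1b*, *Il1rn*, *Il1r1*, *Il1rap*, *Tnf*, *Tnfrsf1b*, *Csf1*, *Csf2* and *Csf3*. They were taken by name, 10 genes of the 24134 in the count tables, and all 10 have a row in both tables. The question was how much of each transcript articular chondrocytes hold, and how it differs when tankyrase is knocked down or blocked.

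The cells were primary articular chondrocytes of ICR mice, taken a few days after birth and used at passage 0, and RNA-seq gave 3 libraries for each of 5 groups. In the drug table the cells were kept for 108 h in DMSO (the vehicle), in 10 μM XAV939 or in 10 μM IWR-1. In the siRNA table they received a control siRNA (siCtrl) or siRNAs against *Tnks* and *Tnks2* together (siTnks/2), with METAFECTENE PRO as the transfection reagent. How long the transfected cells were kept is not given in the sources used here. *Tnks* and *Tnks2* encode the tankyrases, enzymes that attach poly(ADP-ribose) chains to other proteins. XAV939 and IWR-1 are unrelated small molecules that occupy different parts of the catalytic site of tankyrase. The study describes the replicates as biological. No agent was added to raise cytokines, so the levels are those of cells in serum-containing medium. Fewer cells expressing a gene and less RNA of it per cell cannot be told apart in such libraries.

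IL-1α and IL-1β bind the receptor IL-1R1, which then recruits the accessory protein encoded by *Il1rap* and signals through MyD88 to NF-kB and MAP kinases. The receptor antagonist encoded by *Il1rn* occupies IL-1R1 without signalling. TNF acts through its widely expressed first receptor and through the second receptor, encoded by *Tnfrsf1b*. The colony-stimulating factors support macrophages (*Csf1*, M-CSF), granulocytes and macrophages (*Csf2*, GM-CSF) and neutrophils (*Csf3*, G-CSF). In cartilage, IL-1 and TNF are known for raising matrix-degrading enzymes, nitric oxide and prostaglandins, and chondrocytes are themselves a source of chemokines and growth factors for leukocytes.

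Each library held between 26857070 and 36615194 counted reads. The knockdown reached both targets. *Tnks* lay between 58.4 and 70.1 CPM (read counts scaled to library size by TMM) with siCtrl and between 12.7 and 24.02 CPM with siTnks/2, and *Tnks2* between 115 and 120 CPM and between 44.9 and 61.2 CPM. All 12 chondrocyte markers, *Col2a1* and *Acan* among them, were detected in every group. Their summed level was 84800 to 113600 CPM with siCtrl, 120200 to 195400 with siTnks/2, 26830 to 36000 with DMSO, 36950 to 55310 with XAV939 and 88430 to 111300 with IWR-1. *Col2a1* was the largest part of the sum in every group, and not every marker followed it. With siCtrl and siTnks/2, *Sox9* had 5531 to 5817 and 5231 to 6210 counts, and *Sox5* 1422 to 1639 and 1513 to 1720. *Sox6* had 3438 to 4204 and 3179 to 4017 counts. Of the leukocyte markers, *Ptprc* had 0 to 5 counts, *Itgam* 0 to 9, *Tyrobp* 0 to 3 and *Cpa3* 0 over all libraries, but *Csf1r* had 3 to 41, *S100a8* 0 to 70, *Lyz2* 48 to 169 and *Cd68* 63 to 323. The siTnks/2 library of replicate 2 stands apart. It held 89 counts of *Pecam1* and 64 of *Cdh5*, endothelial genes with at most 7 and 3 counts in every other library. Of the other vessel markers, *Emcn* also peaked there (10 counts). *Cspg4* had 23102 counts there but 22607 in siTnks/2 replicate 3, and the study lists it among its cartilage-signature genes. *Kdr*, *Tek* and *Rgs5* did not stand out, with 19, 11 and 2 counts against 20, 23 and 19 in siCtrl replicate 3. Every siRNA result is therefore also given without siTnks/2 replicate 2 where this changes its call, its direction or its size by over 1.5 times. Libraries that share a replicate number deviated together in the siRNA table. In the drug table they did so less clearly, since some libraries of different numbers were as alike. Results that change call when the replicate number enters the fit as a block are given both ways.

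The DNA before the start sites is shown for 4 genes on which the results below turn: *Csf1*, higher with IWR-1, *Tnfrsf1b* and *Csf2*, which were lower with both inhibitors, and *Il1rn*, whose level followed the replicate number. Each line is the stretch of 250 bases directly before the start, 5′ to 3′ along the gene, from RefSeq on build GRCm38.p6. Capitals mark matches to the NF-kB motif or to the AP-1 motif TGANTCA on either strand.
*Csf1*, chr3:107760470-107760719, minus strand: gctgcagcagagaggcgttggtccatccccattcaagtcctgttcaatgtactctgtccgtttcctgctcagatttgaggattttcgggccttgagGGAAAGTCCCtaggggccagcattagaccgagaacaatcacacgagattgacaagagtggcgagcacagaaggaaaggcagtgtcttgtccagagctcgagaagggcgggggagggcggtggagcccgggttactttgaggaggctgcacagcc
*Tnfrsf1b*, chr4:145246871-145247120, minus strand: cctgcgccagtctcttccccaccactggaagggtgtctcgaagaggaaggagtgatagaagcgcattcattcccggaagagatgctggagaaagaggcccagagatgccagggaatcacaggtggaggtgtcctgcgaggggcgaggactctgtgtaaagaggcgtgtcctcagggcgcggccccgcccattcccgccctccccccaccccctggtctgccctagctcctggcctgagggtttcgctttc
*Csf2*, chr11:54249900-54250149, minus strand: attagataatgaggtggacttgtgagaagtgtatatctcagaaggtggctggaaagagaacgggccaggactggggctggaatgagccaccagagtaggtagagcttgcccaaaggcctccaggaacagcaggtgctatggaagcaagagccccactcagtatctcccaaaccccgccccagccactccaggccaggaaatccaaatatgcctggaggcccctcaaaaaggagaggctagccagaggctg
*Il1rn*, chr2:24336610-24336859, plus strand: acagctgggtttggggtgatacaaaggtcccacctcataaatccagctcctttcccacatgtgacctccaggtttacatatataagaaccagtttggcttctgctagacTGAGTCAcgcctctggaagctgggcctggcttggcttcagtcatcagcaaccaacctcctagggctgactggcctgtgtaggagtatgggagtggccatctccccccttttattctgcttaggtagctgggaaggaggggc
RefSeq promoter windows were at hand for 9 of the 10 genes, with none for *Csf3*. An NF-kB match lay 154 bases before the start of *Csf1* and 232 bases before the second listed start of *Il1r1*. An AP-1 match lay 12 bases before the start of *Il1a* and 141 bases before the first listed start of *Il1rn*. The TATA motif TATAAA was present before *Il1a*, *Il1b* and *Tnf*. In all 32851 windows of the same length, 3.9% held the NF-kB motif, 6.75% the AP-1 motif and 12.4% TATAAA, and no motif contains another. No match means only that those letters are not in this window.

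In the control cells the transcripts of the receptors and of *Csf1* were abundant and those of the IL-1 ligands nearly undetected. Per kb of exon, *Csf1* led in siCtrl at 87.7 CPM per kb ± 8.57 (SD, n = 3). *Il1r1* followed at 6.11 ± 0.387 CPM per kb, then *Tnfrsf1b* at 4.70 ± 0.471 and *Il1rn* at 3.47 ± 1.84. The libraries of *Tnfrsf1b* and *Il1rn* overlapped in this order, as did those of *Il1rn* and *Il1rap* at 1.76 ± 0.183 CPM per kb. The other genes stayed under 0.1 CPM per kb in each siCtrl library. In DMSO the leading genes were *Csf1* at 31.4 ± 3.04 CPM per kb, *Tnfrsf1b* at 27.5 ± 3.10 and *Il1r1* at 21.8 ± 4.53, with overlap between each and the next. *Il1rn* at 4.12 ± 0.818 CPM per kb, *Il1rap* at 2.42 ± 0.406, *Csf3* at 1.30 ± 0.565, *Csf2* at 0.718 ± 0.0777 and *Tnf* at 0.325 ± 0.0616 followed without overlap between neighbours. *Il1a* at 0.0714 ± 0.0486 and *Il1b* at 0.0157 ± 0.0153 CPM per kb came last and overlapped. The control groups differ in table, transfection and culture together, so their levels were not tested against each other. As a description, the mean CPM in DMSO was 5.86 times that in siCtrl for *Tnfrsf1b*, 3.58 times for *Il1r1*, 24.1 times for *Csf3*, 1.38 times for *Il1rap* and 1.19 times for *Il1rn*. For *Csf1* the order was the other way, with siCtrl at 2.80 times DMSO.

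**Figure D1:**
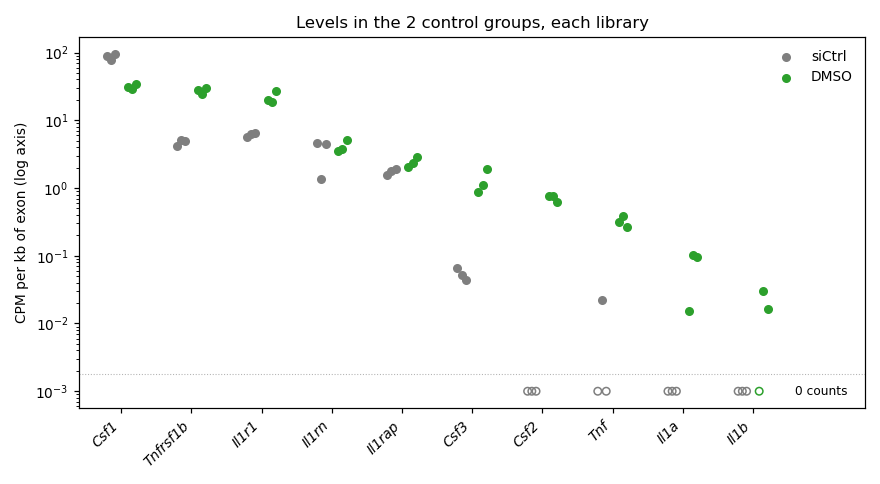
Level of each gene in the siCtrl and DMSO libraries, in CPM per kb of exon on a log axis, with 1 point per library and open points at the bottom for libraries with 0 counts. *Csf1* is the only gene higher in siCtrl than in DMSO in every library, and *Csf2*, *Il1a* and *Il1b* had 0 counts in all 3 siCtrl libraries.

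The IL-1 ligands were at the edge of detection. *Il1a* (chr2:129299609-129310186, build mm10) had 0 counts in all 6 siRNA libraries, 1, 7 and 6 counts in DMSO (replicates 1, 2 and 3), 1, 0 and 7 with XAV939, and 1, 0 and 0 with IWR-1. As counts summed over libraries and divided by their total reads, *Il1a* in DMSO was 1.70 times that with XAV939 (95% exact interval 0.666 to 4.68) and 14.2 times that with IWR-1 (2.15 to 598). *Il1b* (chr2:129364569-129371164) had 0 counts in the siRNA table, 0, 2 and 1 in DMSO, 0, 0 and 1 with XAV939 and 0, 0 and 1 with IWR-1. Neither ligand passed the filter on low counts, so neither was tested with the filter. Transcripts from the other strand overlap both genes, and whether the counting used strand is not given in the sources used here. Such intervals cover counting error only.

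**Figure D2:**
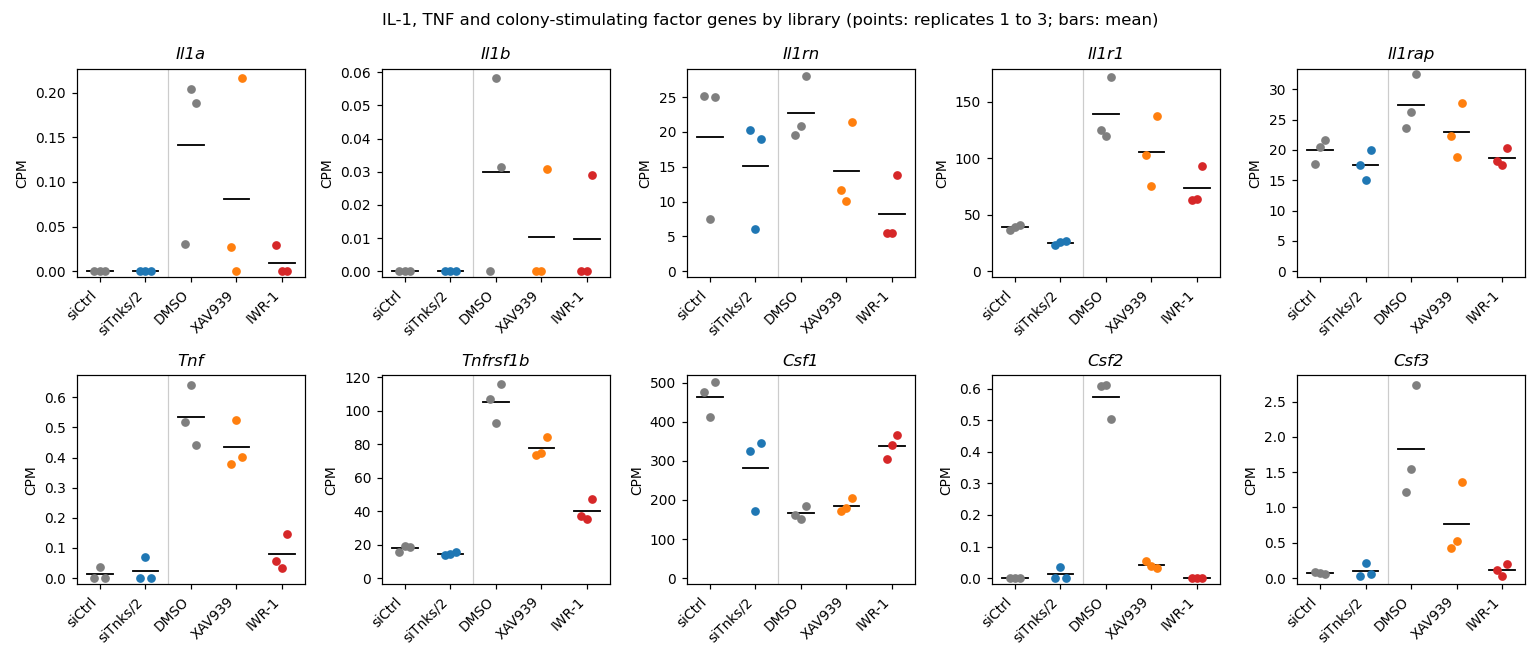
CPM of the 10 genes in each library, 3 points per group with a bar at the mean, the siRNA groups left and the drug groups right of the grey line, each panel on its own linear axis. *Csf1* with IWR-1 lies above every DMSO library and with siTnks/2 below every siCtrl library, whereas *Tnfrsf1b* and *Il1r1* are low in all siRNA libraries and have their lowest mean of the drug groups with IWR-1.

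The receptor antagonist transcript *Il1rn* (chr2:24336860-24351491) was lower with IWR-1. Its level was 19.6, 20.8 and 27.97 CPM in DMSO, 11.7, 10.1 and 21.5 with XAV939, and 5.46, 5.52 and 13.9 with IWR-1. All IWR-1 libraries lay below all DMSO libraries, and replicate 3 was the highest in each group. *Il1rn* fell with IWR-1 by 1.45 on the log2 scale (SE 0.38, adjusted p = 0.0114), and without IWR-1 replicate 2 the adjusted p was 0.0508 (9.088e-06 to 0.0508 over 17 alternatives). With XAV939 the libraries overlapped DMSO, and the fitted change was -0.65 (log2, SE 0.37, adjusted p = 0.246). With the replicate number as a block it was -0.72 (SE 0.15, adjusted p = 0.00442), the lowest of 17 alternatives that reached 0.507.

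In the siRNA table *Il1rn* was 25.1, 7.47 and 25.1 CPM with siCtrl and 20.3, 6.10 and 19.0 with siTnks/2. Replicate 2 was low in both groups, which overlapped. The fitted change was -0.35 (log2, SE 0.56, adjusted p = 0.693). Divided library by library of the same number, siTnks/2 was 0.808, 0.817 and 0.759 times siCtrl, and the fit with the block gave -0.34 (SE 0.07, adjusted p = 0.0174). Without siTnks/2 replicate 2 and without the block the log2 fold change was 0.02 with an adjusted p of 0.976, the other end of the range over 13 alternatives. Of 10 fibroblast and synovial markers, 8 were also lowest in replicate 2 of both groups, *Pdgfra* and *Pdpn* being the exceptions. Their sum, of which *Col1a1* and *Col3a1* made up 77% to 94.4% in each library, was 5182, 3349 and 5665 CPM with siCtrl and 4135, 1639 and 4570 with siTnks/2. In the drug table that sum was 9396 to 12350 CPM in DMSO, 4448 to 6590 with XAV939 and 3375 to 5815 with IWR-1. Not every marker followed the sum: all libraries lay below DMSO for 6 of the 10 with XAV939 and 7 with IWR-1, whereas *Postn* lay above DMSO in every library of both inhibitors. Which cells these marker transcripts came from is not known, and the study lists *Prg4* among its cartilage-signature genes. The part of other cells in the *Il1rn* values was not tested.

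**Figure D3:**
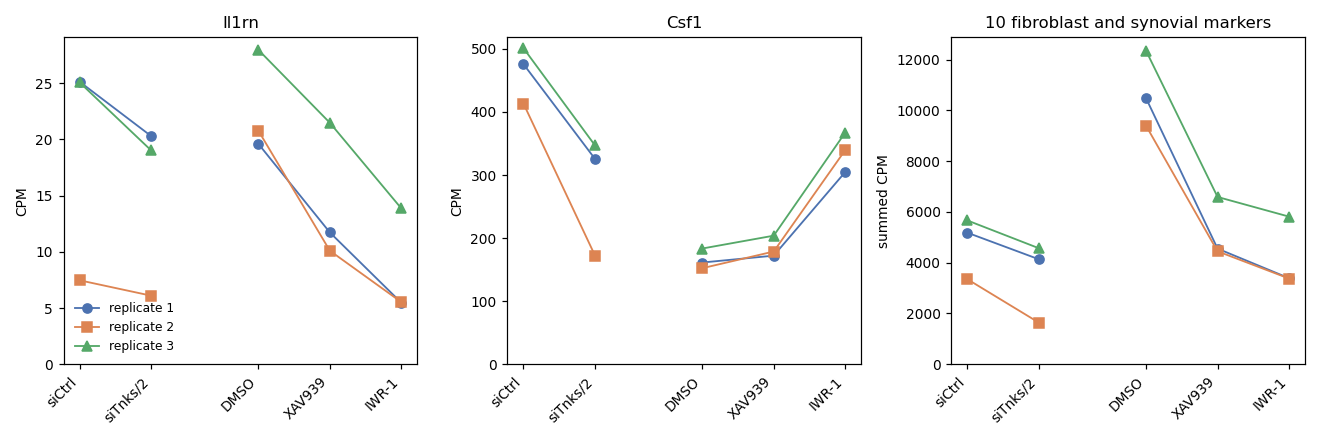
*Il1rn* (CPM), *Csf1* (CPM) and the summed CPM of 10 fibroblast and synovial markers, with lines joining libraries of the same replicate number within the siRNA table and within the drug table. *Il1rn* and the marker sum are lowest in replicate 2 of both siRNA groups, and every line of *Csf1* slopes down from siCtrl to siTnks/2 and up from DMSO to IWR-1.

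*Il1r1* (chr1:40222480-40316201), the signalling receptor, was the only gene of the 10 called with knockdown. It was 36.2, 39.4 and 41.1 CPM with siCtrl and 23.1, 25.6 and 26.4 CPM with siTnks/2. The groups did not overlap. *Il1r1* fell by 0.63 on the log2 scale (SE 0.08, adjusted p = 0.00632), and the ratio within each replicate number was 0.637, 0.650 and 0.643. It passed under all 13 alternatives. Of the 5 genes tested, 1 was called and it was lower, against 18.0% of the 13672 genes tested in either direction and 7.61% lower. With the replicate block 4 were called, against 34.6% of all genes.

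In the drug table *Il1r1* was 125, 120 and 172 CPM in DMSO, 103, 75.8 and 137 with XAV939, and 63.5, 64.0 and 93.2 with IWR-1. It fell with IWR-1 by 0.92 (log2, SE 0.23, adjusted p = 0.00968), without overlap with DMSO and past the threshold under all 17 alternatives. With XAV939 the groups overlapped, at -0.40 (SE 0.23, adjusted p = 0.254). The block gave -0.42 (SE 0.10, adjusted p = 0.00761), the lowest value over 17 alternatives, and the highest was 0.571. An unconfirmed transcript on the same strand overlaps *Il1r1*.

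*Il1rap* (chr16:26581509-26730128), the accessory chain, was called only with IWR-1. It was 17.7, 20.5 and 21.7 CPM with siCtrl and 17.6, 15.04 and 20.04 with siTnks/2, and the groups overlapped (log2 fold change -0.18, SE 0.13, adjusted p = 0.348; -0.09 and 0.618 without siTnks/2 replicate 2). In the drug table it was 23.6, 26.3 and 32.6 CPM in DMSO, 22.3, 18.8 and 27.7 with XAV939, and 18.3, 17.5 and 20.4 with IWR-1. All IWR-1 libraries lay below DMSO, and *Il1rap* fell by 0.55 (log2, SE 0.16, adjusted p = 0.0209). The call was lost without DMSO replicate 3 (adjusted p = 0.0580), IWR-1 replicate 1 (0.0650) or IWR-1 replicate 2 (0.0819), in a range over 17 alternatives from 0.00103 to 0.0819. With XAV939 the fitted change was -0.26 (log2, SE 0.16, adjusted p = 0.296).

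*Tnfrsf1b* (chr4:145212368-145246870), the second TNF receptor, had the smallest adjusted p of the 10 genes. It was 107, 92.5 and 116 CPM in DMSO, 73.7, 74.5 and 84.5 with XAV939 and 36.9, 35.4 and 47.1 with IWR-1. The groups did not overlap, in the order DMSO, XAV939, IWR-1. *Tnfrsf1b* fell with IWR-1 by 1.40 (log2, SE 0.13, adjusted p = 2.472e-05), past the threshold under all 17 alternatives. It fell with XAV939 by 0.44 (SE 0.13, adjusted p = 0.0425), a call held by 9 of 17 alternatives, over which the adjusted p ran from 0.00283 to 0.126. The 9 include a smaller prior count, which cannot change the adjusted p. The call was lost without DMSO replicate 1 (0.122) or 3 (0.100), XAV939 replicate 1 (0.126) or 2 (0.107), or IWR-1 replicate 1 (0.0537) or 2 (0.0569), and with upper-quartile factors or only the 2 groups compared (0.0556 in both).

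With knockdown *Tnfrsf1b* was 13.8, 14.4 and 15.8 CPM, below 15.9, 19.3 and 18.6 CPM with siCtrl. The closest libraries, siTnks/2 replicate 3 and siCtrl replicate 1, nearly met. The fitted change was -0.29 (log2, SE 0.10, adjusted p = 0.0971), and with the block -0.28 (SE 0.08, adjusted p = 0.0367), the lowest over 13 alternatives that reached 0.246.

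*Tnf* (chr17:35199367-35202007) was counted in single reads. It had 0, 1 and 0 counts with siCtrl, 0, 2 and 0 with siTnks/2, 17, 22 and 14 in DMSO, 14, 14 and 13 with XAV939, and 2, 1 and 5 with IWR-1. IWR-1 libraries lay below all others of the drug table. In summed counts divided by total reads, DMSO was 6.70 times IWR-1 (95% exact interval 3.16 to 16.3) and 1.26 times XAV939 (0.820 to 1.94). The fitted log2 fold change of *Tnf* was -2.69 with IWR-1 (SE 0.44, adjusted p = 0.000782) and -0.31 with XAV939 (SE 0.33, adjusted p = 0.554). *Tnf* passed the filter only through its DMSO and XAV939 libraries, so the call with IWR-1 is no support.

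*Csf1* (chr3:107741048-107760469) was the only gene of the 10 that rose in any comparison with a control. It was 161, 152 and 183 CPM in DMSO, 172, 179 and 204 with XAV939 and 305, 339 and 367 with IWR-1. All IWR-1 libraries exceeded the other drug-table libraries. *Csf1* rose with IWR-1 by 1.03 (log2, SE 0.12, adjusted p = 7.489e-05), past the threshold under all 17 alternatives. With XAV939 the groups overlapped, and the fitted change was 0.16 (log2, SE 0.12, adjusted p = 0.374).

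In the siRNA table *Csf1* was 476, 413 and 501 CPM with siCtrl and 326, 172 and 347 CPM with siTnks/2. All siTnks/2 libraries lay below siCtrl, and replicate 2, the library high in *Pecam1* and *Cdh5*, was the lowest. The fitted change was -0.72 (log2, SE 0.25, adjusted p = 0.0873). The adjusted p was 0.0159 with the block, 0.0147 with DESeq2 and 0.0150 without siTnks/2 replicate 2, where the log2 fold change was -0.46. Over all 13 alternatives the adjusted p ran from 0.0147 to 0.203.

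*Csf2* (chr11:54247270-54249899) was detected mainly in DMSO. It had 20, 21 and 16 counts there, 2, 1 and 1 with XAV939, and 0, 0 and 0 with IWR-1. It had 0 counts in every siCtrl library and 0, 1 and 0 with siTnks/2. No XAV939 or IWR-1 library reached the level of any DMSO library. In summed counts over total reads, DMSO was 13.8 times XAV939 (95% exact interval 5.12 to 52.5), and *Csf2* was at least 19.2-fold lower with IWR-1, taking a floor of 3 counts over the group. The adjusted p was 0.000869 with XAV939 and 6.629e-05 with IWR-1, but *Csf2* passed the filter only through its DMSO libraries, so these calls are no support. An antisense transcript overlaps the gene.

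*Csf3* (chr11:98700183-98703631) had 40, 53 and 87 counts in DMSO, 16, 14 and 44 with XAV939, and 4, 1 and 7 with IWR-1. With siCtrl it had 3, 2 and 2 counts and with siTnks/2 1, 6 and 2. IWR-1 libraries lay below all DMSO libraries, and XAV939 replicate 3 lay within the DMSO range in CPM. In summed counts over total reads, DMSO was 15.2 times IWR-1 (95% exact interval 8.47 to 29.9) and 2.36 times XAV939 (1.79 to 3.14). *Csf3* fell with IWR-1 by 3.89 (log2, SE 0.61, adjusted p = 0.000562), but it passed the filter only through its DMSO and XAV939 libraries, so this call is no support. With XAV939 the fitted change was -1.24 (log2, SE 0.47, adjusted p = 0.0917). It was -1.29 with the block (SE 0.24, adjusted p = 0.00197), and without XAV939 replicate 3 the adjusted p was 0.0196, in a range over 16 alternatives from 0.00197 to 0.265.

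With XAV939, 2 of the 8 genes tested were called, both lower, against 17.4% of the 13873 genes tested (9.85% lower), and 5 with the block, against 33.4%. With IWR-1 all 8 were called, 7 lower and 1 higher, against 36.4% of all genes, of which 20.2% were lower and 16.2% higher. These counts are not evidence for the low genes, since *Csf2*, 1 of the 2 called with XAV939, reached the filter only through its DMSO libraries and *Tnf* and *Csf3* through DMSO and XAV939. The 5 genes with at least 10 counts in every drug library were all called too, 4 lower and 1 higher. Under that filter 35.4% of the 12741 genes tested were called with IWR-1, 2514 lower and 1998 higher. XAV939 and IWR-1 were compared with the same DMSO libraries, so their values share that error. Leukocyte markers moved in part with the low genes: the summed level of the 16 markers was 13.1 to 18.5 CPM in DMSO, 13.96 to 17.9 with XAV939 and 7.18 to 10.3 with IWR-1, mostly *Cd68* and *Lyz2*. Their part in the results was not tested.

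**Figure D4:**
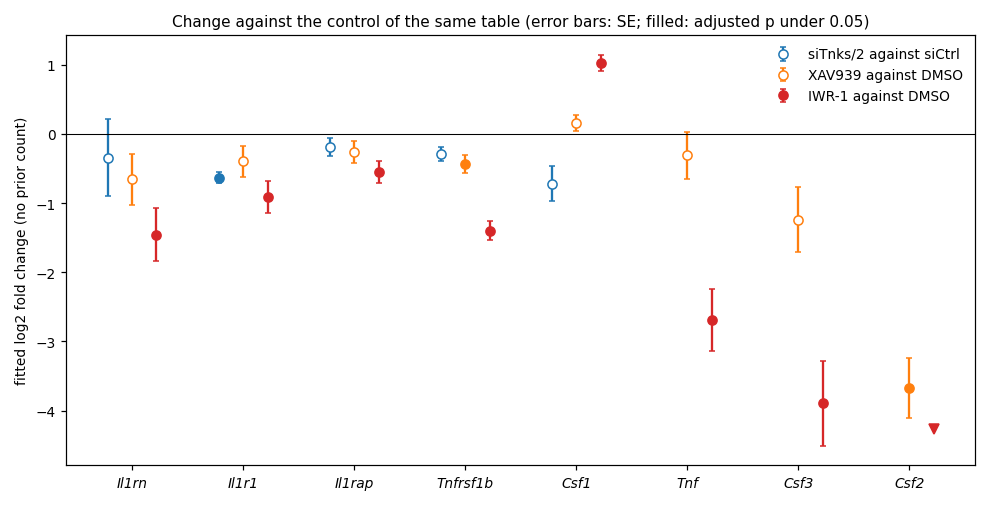
Fitted log2 fold change, without a prior count, of the tested genes against the control of their own table, with SE bars, filled symbols for an adjusted p under 0.05 and a triangle without bar for *Csf2* with IWR-1, where all libraries had 0 counts, at its bound of at least 19.2-fold lower. Knockdown is shown for the 5 genes tested in the siRNA table, and *Csf1* with IWR-1 at 1.03 is the only filled symbol above 0.

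The inhibitors were given at the same dose for the same time, so IWR-1 was also compared with XAV939 directly, with p-values adjusted over all 13873 genes. Of the 8 genes tested, 4 were called, 1 higher with IWR-1 and 3 lower, against 17.6% of all genes, of which 7.37% were higher and 10.2% lower. *Tnf* and *Csf3*, both among the lower, reached the filter only through DMSO and XAV939, so their calls here are no support. Relative to XAV939, IWR-1 gave higher *Csf1* (log2 difference 0.87, SE 0.12, adjusted p = 0.000824) and lower *Tnfrsf1b* (-0.96, SE 0.13, adjusted p = 0.000927), and *Tnf* was 5.33 times as high with XAV939 in summed counts over total reads (95% exact interval 2.47 to 13.2, adjusted p = 0.00553). *Csf3* was also lower with IWR-1 (-2.65, SE 0.66, adjusted p = 0.0192). That call was lost without IWR-1 replicate 1 (0.0686), IWR-1 replicate 2 (0.0758) or XAV939 replicate 3 (0.0681), in a range over 16 alternatives from 0.000367 to 0.0758.

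The other members were not separated by this test, and their intervals leave room for a difference. The 95% interval of the log2 difference was -1.02 to -0.01 for *Il1r1* (adjusted p = 0.151), -0.65 to 0.06 for *Il1rap* (adjusted p = 0.251) and -1.63 to 0.03 for *Il1rn* (adjusted p = 0.178). With the block the adjusted p was 0.00266 for *Il1r1* and 0.00232 for *Il1rn*, and 6 genes were called, against 30.7% of all genes. Over 17 alternatives it ran up to 0.438 for *Il1r1* and 0.511 for *Il1rn*. *Csf2* had 4 counts with XAV939 and 0 with IWR-1 (adjusted p = 0.0777).

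Whether knockdown and inhibitor effects differ was tested in 1 model over all 15 libraries, for the 5 genes abundant in both tables. The knockdown effect on *Csf1* lay 1.73 below the IWR-1 effect, at a log2 difference of -1.73 (SE 0.27, adjusted p = 0.000433). For *Tnfrsf1b* the knockdown effect lay above the IWR-1 effect by 1.12 (SE 0.18, adjusted p = 0.00042). Both held under all 21 alternatives. These were 2 of 5 genes, against 24.4% of the 14271 genes tested (13.9% higher, 10.5% lower), and 3 with the block, against 36.3%. For *Il1rn* the difference was 1.11 (SE 0.71, adjusted p = 0.277), and 1.23 with the block (adjusted p = 0.000486), the lowest over 21 alternatives that reached 0.464. Against XAV939, *Csf1* was the 1 gene called, against 13.5% of all genes (5.4% lower), with a difference of -0.86 (SE 0.27, adjusted p = 0.0496). That call held in 8 of 21 alternatives, where the adjusted p ran from 0.00189 (with the block) to 0.106. For *Il1r1* the effects were not separated from either inhibitor, with adjusted p = 0.654 for XAV939 and 0.494 for IWR-1. The table and the transfection differ together with the treatment, so their shares in such differences cannot be told apart. *Csf2* and *Csf3* also passed this test against IWR-1 (adjusted p = 0.0161 and 0.0180), but the siRNA libraries held 0 to 6 counts of them, so no size is given. Both reached the filter only through drug libraries, so these calls are no support.

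Other genes of the same pathways were called in both directions. Of 46 further ligands, receptors, adaptors and processing enzymes, 35 could be tested in the drug table and 32 in the siRNA table. With IWR-1, 6 rose and 13 fell (54.3% called, against 36.4% of all genes), with a median log2 fold change of -0.17 beside 0.01 for all genes. With XAV939, 6 rose and 3 fell (25.7% against 17.4%, median -0.10 beside 0.02), and with knockdown 3 rose and 1 fell (12.5% against 18.0%, median 0.00, as for all genes). *Nlrp3*, *Sigirr* and *Csf1r*, among the lower with IWR-1, were too low there to reach the filter by those libraries alone. The same held in DMSO for *Casp1*, among the higher with both inhibitors. The calls of these genes are no support, and the counts and shares include them. With the block the counts were 9 and 6 with XAV939 (42.9% against 33.4%) and 5 and 6 with knockdown (34.4% against 34.6%). Without IWR-1 replicate 1 or 2 the IWR-1 count fell from 19 to 11 or 10, and the share of all genes from 36.4% to 27.6% or 26.9%. The knockdown count was 5 without siTnks/2 replicate 2, where 20.8% of all genes were called. It was 2 without siCtrl replicate 1 or 2 or siTnks/2 replicate 1 (4.4%, 6.72% and 5.78% of all genes). Without siCtrl replicate 3 it was 1 (4.91% of all genes).

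Among the receptors, *Il18rap*, an IL-18 receptor chain, fell by 2.497 with IWR-1 (log2, adjusted p = 2.333e-05) and by 0.998 with XAV939 (adjusted p = 0.0105). *Il1rl1*, the IL-33 receptor, fell from 175 ± 53.4 CPM in DMSO to 40.2 ± 12.9 with IWR-1 and 47.9 ± 19.0 with XAV939 (SD, n = 3; adjusted p = 0.0004995 and 0.00312). The GM-CSF receptor chain *Csf2ra* rose in all 3 comparisons, by 1.25 with IWR-1, 1.30 with XAV939 and 0.53 with knockdown (adjusted p = 0.00106, 0.00268 and 0.0280). The knockdown call of *Csf2ra* was lost without siCtrl replicate 1, 2 or 3 or siTnks/2 replicate 1, where the adjusted p reached 0.107.

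Among the adaptors, *Irak3*, a negative regulator of IL-1 receptor signalling, fell with IWR-1 from 64.7 ± 0.946 to 23.7 ± 3.501 CPM (SD, n = 3; adjusted p = 7.844e-06). *Traf6* fell with XAV939 by 0.70 (adjusted p = 0.0061) and with IWR-1 by 0.45 (adjusted p = 0.0253). *Tab1* rose with IWR-1 by 0.50 (adjusted p = 0.00619) and with XAV939 by 0.45 (adjusted p = 0.0219). With knockdown *Irak2* rose by 0.77 (adjusted p = 0.0102, and 0.0504 without siCtrl replicate 3) and *Tollip* fell by 0.64 (adjusted p = 0.0099). Among processing genes, the caspase *Casp4* rose by 1.14 with IWR-1 and 0.91 with XAV939 (adjusted p = 0.000135 and 0.00197). The inflammasome adaptor *Pycard* rose by 0.99 with IWR-1 and 1.93 with XAV939 (adjusted p = 0.0227 and 0.0015), from 0.805 ± 0.238 CPM in DMSO, and its IWR-1 call was lost without DMSO replicate 1 or IWR-1 replicate 1 or 2. *Casp1* rose with XAV939 by 1.39 (adjusted p = 0.0133) and with IWR-1 by 0.93 (adjusted p = 0.0442), at under 1 CPM. The XAV939 call was lost without DMSO replicate 1 or XAV939 replicate 1. With at most 11 counts in a DMSO library, *Casp1* reached the filter only through its inhibitor libraries, so these calls are no support. *S100a13*, which takes part in IL-1α release, fell with IWR-1 by 1.01 (adjusted p = 0.000345). *Il18*, a ligand of the IL-1 family, rose with knockdown by 0.62 (adjusted p = 0.0192), and the call was lost without any siCtrl library or siTnks/2 replicate 1, up to an adjusted p of 0.0733.

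Transcripts known to be raised by IL-1 and TNF fell with IWR-1. Of 30 such genes, 28 fell, with a median log2 fold change of -1.99 beside 0.01 for all genes, of which 20.2% were lower. The leading genes were *Nos2*, the inducible nitric oxide synthase, at 1418 ± 198 CPM in DMSO and 65.3 ± 14.7 with IWR-1 (adjusted p = 6.89e-07), *Ccl2* at 631 ± 62.7 and 95.6 ± 15.5 CPM (1.315e-06), *Cxcl2* at 84.3 ± 6.40 and 9.71 ± 2.13 CPM (1.653e-06) and *Zc3h12a*, an RNase that cleaves cytokine mRNA, at 133 ± 2.31 and 42.4 ± 5.44 CPM (2.994e-06; SD, n = 3 throughout). With XAV939, 13 fell and 2 rose (15 of 30 called, against 17.4% of all genes, median -0.53). *Tnfaip3* fell by 1.37, *Cxcl2* by 1.59, *Nos2* by 1.66 and *Ccl2* by 0.82 (adjusted p = 0.000179, 0.0002, 0.000222 and 0.00267), whereas *Mmp9* rose by 0.86 and *Vcam1* by 1.21 (adjusted p = 0.00509 and 0.0149). The call of *Vcam1* was lost without DMSO replicate 1 (adjusted p = 0.0659).

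With knockdown, 3 of 26 tested rose and 5 fell, with a median of -0.12 (30.8% called, against 18.0% of all genes), and with the block 7 rose and 8 fell (57.7% against 34.6%). Without siTnks/2 replicate 2 there were 6 calls (20.8% of all genes called), and without siCtrl replicate 2 there were 3 (6.72% of all genes). Without siCtrl replicate 3 or siTnks/2 replicate 1 there was 1 (4.91% and 5.78% of all genes). *Mmp13*, the main collagenase of cartilage, rose from 464 ± 39.8 to 919 ± 92.8 CPM (SD, n = 3; adjusted p = 0.00384), *Mmp9* by 2.70 (adjusted p = 0.0269) and *Saa3* by 1.19 (adjusted p = 0.0449). *Zc3h12a* fell by 0.74, *Lif* by 1.06, *Cxcl1* by 0.97 and *Cxcl5* by 1.14 (adjusted p = 0.0165, 0.0260, 0.0337 and 0.0357). The call of *Mmp13* held without any 1 library. *Mmp9* was 1.84, 5.10 and 1.04 CPM with siTnks/2, highest in replicate 2, and its change was 1.85 without that library (adjusted p = 0.00990), while its call was lost without any siCtrl library or siTnks/2 replicate 1. The other 5 named genes each lost their call without at least 3 of the 6 libraries in turn, and without siTnks/2 replicate 2 the adjusted p of *Saa3* was 0.0646 and that of *Cxcl5* 0.0530. Many of these genes were low in the siRNA table: *Cxcl1* was 2.95 ± 0.818 CPM with siCtrl and 1533 ± 64.6 CPM in DMSO.

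Of the genes for 11 proteins that bind cytokine mRNA and set its decay or translation, 4 were called with IWR-1, or 36.4%, the same share as of all genes. *Zfp36l1*, *Zfp36* and *Zfp36l2*, of the family that destabilises AU-rich transcripts such as those of TNF and GM-CSF, fell with IWR-1 by 1.37, 0.66 and 0.61 (adjusted p = 8.685e-05, 0.00334 and 0.0101). *Tia1* rose by 0.38 (adjusted p = 0.0492), a call held in 3 of 9 fits that each left out a library. With XAV939 *Zfp36* alone was called, lower by 0.76 (adjusted p = 0.00401), or 9.09% of the list against 17.4% of all genes. With the block 5 of the 11 were called (45.5% against 33.4%). With knockdown *Khsrp* alone was called, lower by 0.27 (adjusted p = 0.0306), or 9.09% of the list against 18.0% of all genes. Of the 6 fits that each left out a library, only that without siTnks/2 replicate 2 held this call.

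**Figure D5:**
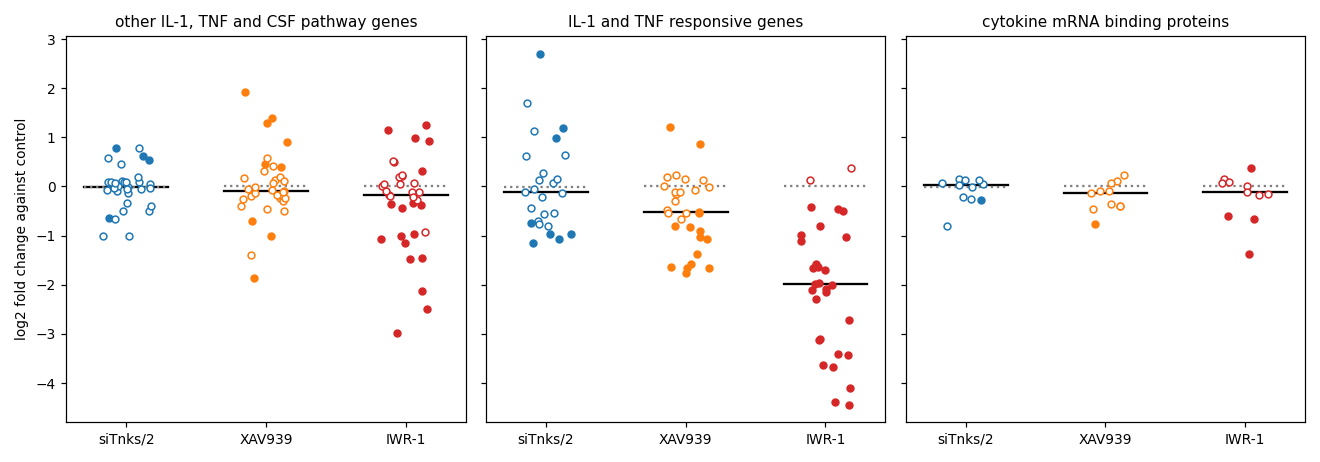
Log2 fold change of every tested gene of the 3 lists against its control, filled for an adjusted p under 0.05, with a black bar at the list's median and a dotted bar at the median of all genes. The responsive genes with IWR-1 lie lowest, at a median of -1.99 with 28 of 30 lower.

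The genes whose pattern was most like that of *Tnfrsf1b*, over the 15 libraries and among 13342 genes tested in both tables, were *Il4ra* (Pearson's r = 0.995), *Dlg4* (r = 0.984) and *Antxr1* (r = 0.979). The values are log2 CPM centred on the mean of each table, and the libraries share groups and depth, so this is a description. *Il4ra* encodes the IL-4 receptor α chain, *Dlg4* a synaptic scaffold protein and *Antxr1* a collagen-binding receptor.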

How the data were processed

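Libraries were made from poly(A) RNA with a strand-marking kit. Trimming by the authors used Trimmomatic 0.32, alignment to mm10 TopHat2 2.0.13 and counting per gene HTSeq 0.6.1p1 (versions from the submitters' processing notes). The deposited values are raw counts per Entrez gene ID, not normalized, and 24051 of 24134 IDs matched a symbol. The annotation and strand setting of the counting are not given in the sources used here. Reads carry no molecular identifiers. The exact intervals are of counts pooled over the libraries of a group, so they cover counting error only and not the spread between libraries.

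Counts were analysed with edgeR 4.0.16 in R 4.3.3: filterByExpr (minimum count 10), TMM scaling and the quasi-likelihood F test on each table, with Benjamini-Hochberg adjustment over all genes tested and a threshold of 0.05. A prior count of 2 enters the log2 fold changes, which understates changes of low genes. Standard errors and 95% intervals belong to the fit without it, and for *Tnf* and *Csf3*, where the fits differ, that fit is printed. CPM per kb uses the exon length of the annotation. Differences of effects were tested over all 15 libraries. Exact intervals of summed counts, with a floor of 3, were used for low genes. The steps were tested on simulated data.

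Libraries of the same replicate number in the column names were checked for pairing. After group means were removed they correlated at 0.143 to 0.553 in 9 pairs of the drug table and 0.424 to 0.519 in 3 pairs of the siRNA table, each above 0.1. Pairs of different numbers ran from -0.409 to 0.097 in the siRNA table. In the drug table they ran from -0.489 to 0.318 and so overlapped the pairs of the same number. DMSO replicate 2 was more like XAV939 replicate 1 (0.318) than XAV939 replicate 2 (0.143). Fits with the replicate block are therefore given beside results whose call they change. Other alternatives were RLE and upper-quartile factors, no filter, at least 10 counts in every library, a prior count of 0.5, DESeq2 1.42.0, fits of only the groups compared and leaving out each library. The prior count of 0.5 changes only the log2 fold change, so its adjusted p equals the main one. It is counted among the alternatives within each table, where it cannot test a call.

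The members and lists were chosen with earlier results of these data known. The rule for named genes covers all 10 members, *Tnks* and *Tnks2*, up to 4 genes each way per list and comparison with the smallest adjusted p, the 3 genes most correlated with the member of smallest adjusted p, and markers that move with a group. In the sentence on *Cxcl1* levels, the gene was chosen after its values were seen. *Nlrp3*, *Sigirr* and *Csf1r* with IWR-1 are named only because of the filter, and *Traf6*, *Tab1* and *Casp1* are given with both inhibitors. No motif search or sequence entered a test.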

Additional observations from a re-analysis of the deposited data

Results flagged for a closer look

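The effects of knockdown and inhibitor differed for *Csf1* and *Tnfrsf1b*, by the test of the difference itself. For *Csf1* the knockdown effect minus the IWR-1 effect was -1.73 (log2), with knockdown libraries below siCtrl in 3 of 3 replicate numbers and IWR-1 libraries above DMSO in 3 of 3. The same gene differed between knockdown and XAV939 by -0.86, with XAV939 above DMSO in 3 of 3 numbers, and this call depends on the setting. For *Tnfrsf1b* the knockdown effect minus the IWR-1 effect was 1.12, and both treatments lay below their control in 3 of 3 numbers.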

How the results depend on the processing

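Counts of called members moved by over 1.5 times as follows. With knockdown, 1 became 4 with the replicate block and 2 with DESeq2 (34.6% and 22.6% of all genes called). With XAV939, 2 became 5 with the block (33.4% of all genes called). The count became 1 with upper-quartile factors (18.1% of all genes), at least 10 counts in every library (17.1%) or only the 2 groups compared (11.5%). With at least 10 counts in every library, which leaves fewer genes tested, IWR-1 gave 5 against DMSO (35.4% of all genes) and 2 against XAV939 (17.4%). The difference between the knockdown and XAV939 effects gave 0 with RLE factors in edgeR (*Csf1*, adjusted p = 0.0518), where 13.2% of all genes were called. Leaving out each library gave 1 to 2 with knockdown, 1 to 3 with XAV939, 6 to 8 with IWR-1, 3 to 5 between inhibitors, and 0 to 1 and 2 to 2 for the differences from XAV939 and IWR-1. In the same fits the share of all genes called was 4.4% to 20.8% with knockdown, 9.45% to 17.7% with XAV939, 26.9% to 40.3% with IWR-1 and 9.57% to 21.7% between inhibitors.

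With the block, called genes numbered 11 of the pathway list, 15 of the responsive list and 2 of the mRNA-binding list with knockdown, and 15 of the pathway list and 5 of the mRNA-binding list with XAV939. DESeq2 gave 7 and 2 for the pathway and mRNA-binding lists with knockdown and 2 for the latter with XAV939, where no filter also gave 2. The share of all genes called with the block was 34.6% with knockdown and 33.4% with XAV939. With DESeq2 it was 22.6% and 20.3%, and with no filter 12.6% with XAV939. Leaving out each library gave, for knockdown, XAV939 and IWR-1, 1 to 5, 6 to 11 and 10 to 19 pathway genes, 1 to 6, 10 to 16 and 25 to 28 responsive genes, and 0 to 2, 1 to 3 and 3 to 4 mRNA-binding genes.

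Directions reversed only in uncalled values when a library was left out. Over the left-out libraries, *Il1rn* with knockdown ran from -0.7258 to 0.0228 (without siTnks/2 replicate 2). Of the differences between knockdown and XAV939 effects, *Il1rn* ran from -0.0596 (without siCtrl replicate 2) to 0.7193, *Il1r1* from -0.4074 to 0.017 (without XAV939 replicate 3) and *Il1rap* up to 0.2414, with -0.017, -0.0584 and -0.0257 without siTnks/2 replicate 3, DMSO replicate 3 or XAV939 replicate 2. The causes were not tested, except that the block removes the spread shared by libraries of a number. Other scalings shifted the median of all genes by at most 0.068 (log2). At these depths, *Il1a*, *Il1b* and, in the siRNA table, *Tnf*, *Csf2* and *Csf3* did not pass the filter on low counts.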
